A study of Mus musculus with 20 samples.

Results

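The genes described here are 10 markers of the Lgr5-positive stem cells at the base of the mouse intestinal crypt: Lgr5, Olfm4, Smoc2, Igfbp4, Fstl1, Rgmb, Cdca7, Soat1, Sox9 and Phlda1. They were listed by name and matched through their Ensembl identifiers to GENCODE M21 symbols. All 10 were found among the 54838 gene rows of the deposited tables. The study followed RNA after deletion of Mettl3, the catalytic subunit of the enzyme that writes N6-methyladenosine (m6A) on mRNA, in sorted crypt cells and in intestinal organoids, which are crypt-like cultures grown from intestinal epithelium. The questions addressed here were which of the markers were low at which labelled day of the knockout, and which returned when transcription factors were overexpressed in knockout organoids.

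All 20 libraries, from mice or cultures, are labelled C57BL/6, and the strain was not checked here. They measured total RNA by sequencing of libraries made with an NEBNext Ultra kit. Crypt cells were sorted on a gate of high or low Lgr5 reporter. The wild-type groups (WT Lgr5-high and WT Lgr5-low, 2 libraries each) are labelled untreated. The general protocol instead gives tamoxifen to Mettl3fl/fl mice without a Cre as well, and the labels do not say which reporter the wild-type mice carried. The Mettl3-/- groups came from mice with the alleles Villin-CreERT2, Lgr5-EGFP-IRES-CreERT2 and Mettl3fl/fl, given tamoxifen at 20 mg/ml for 4 days. Villin-CreERT2 acts in the whole intestinal epithelium, so the deletion was not limited to stem cells. These groups were day 3 Lgr5-high and Lgr5-low (1 library each), day 4 Lgr5-high and Lgr5-low (2 each) and day 6 (2 libraries). The labels used here do not say from when the days are counted, and day 3 is also labelled with 4 days of tamoxifen. The titles of day 6 give no gate, although a low gate appears in the header of one of the pair. Day 6 is therefore set beside both wild-type gates below.

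Organoids from mice with the same 3 alleles were kept in ENR medium, which holds EGF, Noggin and R-spondin1, and live cells were sorted with no Lgr5 gate. WT organoids were given EtOH for 2 days and knockout (KO) organoids 4-OHT for 2 days. Further knockout organoids carried a retrovirus for Ascl2, Klf9 and Fosb (AKF), or one for these factors and Purb (AKFP). The AKF and AKFP libraries are also labelled with 2 days of treatment. Each of these groups had 2 libraries. AKF and AKFP cultures had been selected in puromycin, and no puromycin-selected control without the factors is labelled, so selection and factors cannot be told apart. The titles of the WT and KO organoids hold the term m3-flag, which the labels do not explain. The labels do not state whether the replicates of any group are biologically separate. The p-values therefore measure the spread between these libraries, and whether that spread is biological or technical is not given.

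Crypt base stem cells divide throughout life and replace the intestinal epithelium. They depend on Wnt signals, which R-spondins strengthen by binding Lgr5, and they sit between Paneth cells that supply niche signals. The markers in this set have different jobs. Lgr5 is the R-spondin receptor, and Olfm4, Smoc2, Igfbp4 and Fstl1 are secreted proteins. Rgmb is a membrane-anchored co-receptor for bone morphogenetic proteins, Cdca7 and Sox9 act in the nucleus, Soat1 is an enzyme that esterifies cholesterol, and Phlda1 is an intracellular protein with a pleckstrin homology-like domain.

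Values are FPKM, fragments scaled to transcript length and to the library's mapped fragments, so levels of different genes can be compared per length. Depth estimated from the files was 14.9 to 25.5 in units of 1e6 fragments per library. Mettl3 lay between 2.75 and 4.99 FPKM in all 20 libraries, and a gene-level value does not check the deletion of an exon. Of the overexpressed factors, Ascl2 was called higher in AKF (log2 difference 1.56) and AKFP (0.61) than in KO organoids and Klf9 in AKFP (2.11), while Fosb was called lower in AKFP (-1.42) and Purb was called in neither. Pla2g2a, a secreted phospholipase of Paneth cells, split libraries within groups: it was 4723 and 87.9 FPKM at day 4 Lgr5-high, 3346 and 107 at day 4 Lgr5-low, 372 and 109 at day 6, and between 1482 and 2477 in the WT and day 3 libraries. In organoids it was 610 and 592 FPKM with AKFP against 8.17 to 15.7 in the other 6 libraries. The AKFP cultures thus stood apart from the rest on a gene that was not among the factors. The labels used here name no organoid line, so line and factors cannot be told apart for AKFP. Whether the Pla2g2a split has a part in the results below was not tested, and values without each library are given beside the calls they touch. Immune markers summed to 4.39 to 28.7 FPKM over 10 genes in tissue and to 0.52 to 1.39 in organoids, where Ptprc, Cd8a and Gzma were listed at 0 in all 8 libraries.

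In GRCm38 (mm10) coordinates Lgr5 spans chr10:115450311-115587780 on the minus strand, and Phlda1 chr10:111506286-111508645 on the plus strand. Olfm4 lies at chr14:79984081-80023139 (plus), Smoc2 at chr17:14279506-14404790 (plus) and Rgmb at chr17:15803188-15831039 (minus). Igfbp4 lies at chr11:99041244-99054392 (plus), Sox9 at chr11:112782224-112787760 (plus) and Fstl1 at chr16:37776873-37836514 (plus). Cdca7 is at chr2:72476159-72486893 (plus) and Soat1 at chr1:156424525-156474331 (minus). GENCODE places an antisense gene over Lgr5 (A930009A15Rik), Smoc2 (4930474M22Rik), Soat1 (Gm37648) and Phlda1 (Gm28592), and a same-strand gene over Olfm4 (Gm6999). Whether reads were counted by strand is not given in the sources used here, so the values of these 5 genes can hold reads of their neighbours.

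RefSeq promoter windows (GRCm38.p6) were matched for 6 of the 10 genes, namely Olfm4, Igfbp4, Fstl1, Rgmb, Cdca7 and Soat1. Lgr5, Smoc2, Sox9 and Phlda1 had no entry. Those of Olfm4, Soat1 and Igfbp4 are printed because in AKFP against KO organoids the first pair were called higher after being called lower in KO, and the last had the greatest difference, on the lower side. Each is the part of the RefSeq window that lies before the first GENCODE exon base met in it, 5′ to 3′ on the gene's own strand, at chr14:80000052-80000250 (plus), chr1:156474332-156474578 (minus) and chr11:99040994-99041243 (plus). The Olfm4 stretch lies inside the GENCODE span of the gene, which starts at chr14:79984081. Capitals mark a match to a searched motif.
Olfm4: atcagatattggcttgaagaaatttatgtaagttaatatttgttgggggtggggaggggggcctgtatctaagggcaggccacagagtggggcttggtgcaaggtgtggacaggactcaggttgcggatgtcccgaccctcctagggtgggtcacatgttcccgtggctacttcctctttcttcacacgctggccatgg
Soat1: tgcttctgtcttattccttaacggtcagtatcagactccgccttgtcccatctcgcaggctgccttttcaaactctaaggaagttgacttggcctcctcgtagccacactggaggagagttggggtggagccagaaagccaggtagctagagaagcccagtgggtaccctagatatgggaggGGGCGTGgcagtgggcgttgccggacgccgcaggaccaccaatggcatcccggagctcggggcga
Igfbp4: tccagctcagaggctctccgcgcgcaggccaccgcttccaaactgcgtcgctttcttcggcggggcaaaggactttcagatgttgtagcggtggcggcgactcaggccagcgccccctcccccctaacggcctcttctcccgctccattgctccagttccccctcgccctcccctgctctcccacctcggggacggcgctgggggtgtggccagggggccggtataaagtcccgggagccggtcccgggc
Searched on both strands were the TCF/LEF motif CTTTGA, the E-box CAGCTG of the kind that Ascl2 binds, the AP-1 motif TGANTCA of the family that holds Fosb, and the KLF motif CACGCCC. Over 32851 windows of up to 250 bases these were present in 13.8%, 13.0%, 6.75% and 7.55%. Those windows were not cut at exons, while the windows of the 6 genes were, down to 68 bases for Fstl1. The shares are therefore not like for like with the matches below. Among the 6 matched genes a single match was found, a KLF motif on the reverse strand of Soat1 with its first base at base 183 of the printed sequence, counted from 1 at its 5′ end. The match is a description of letters and not a binding site, and the other windows lack only these letters.

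In wild-type crypts every marker was higher in Lgr5-high than in Lgr5-low cells, in both libraries of each gate. Of the 10, 5 passed the test (limma on log2(FPKM + 1), adjusted p under 0.05 over 12899 genes): Igfbp4, Fstl1, Rgmb, Lgr5 and Soat1. Over all genes tested, 0.372% were called higher. Groups that did not overlap, with Lgr5-high above, were found for 40.1% of all genes and for all 10 markers. The median log2 difference was 1.76 over the markers and 0.10 over all genes. In bulk libraries, fewer cells of a type and less RNA per cell cannot be told apart.

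Lgr5, the receptor whose reporter set the gates, was 10.1 and 10.4 FPKM in Lgr5-high and 0.715 and 0.974 in Lgr5-low cells (log2 difference 2.62, 95% interval 1.79 to 3.44, limma adjusted p = 0.0172). That difference shows that the sort held, and it is no finding. Olfm4, a secreted glycoprotein and the most abundant marker per length, was 2857 and 3060 FPKM against 538 and 484. Its difference of 2.53 missed the threshold with a wide interval (1.11 to 3.95, limma adjusted p = 0.0999). Igfbp4, which binds insulin-like growth factors, was 36.0 and 39.3 FPKM against 8.53 and 5.73 (2.27, 1.76 to 2.77, limma adjusted p = 0.0101), the smallest adjusted p among the 10. Fstl1, a secreted follistatin-like glycoprotein, was the least abundant marker per length in the high gate, at 4.73 and 3.90 FPKM against 0.727 and 0.465 (1.74, 1.24 to 2.23, limma adjusted p = 0.0155).

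Rgmb was 25.9 and 25.8 FPKM in Lgr5-high and 6.89 and 5.84 in Lgr5-low cells (1.87, limma adjusted p = 0.0163). Soat1 was 14.0 and 14.7 FPKM against 3.38 and 3.59 (1.77, limma adjusted p = 0.0208). Both genes had libraries within a gate far closer than the gates were. Smoc2, a matricellular calcium-binding protein, was 39.1 and 42.9 FPKM against 18.8 and 14.7. Cdca7, a Myc-responsive nuclear protein, was 117 and 112 FPKM against 40.1 and 36.2, and Sox9, a transcription factor of crypt stem and Paneth cells, was 42.4 and 35.3 against 18.1 and 15.2. Phlda1 was 27.7 and 28.4 FPKM against 12.8 and 13.1. These 4 genes had differences of 1.06 to 1.56 and limma adjusted p-values of 0.061 to 0.242, so they were not called.

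The fit took no pairing of the gates. The calls between the wild-type gates rested on all 4 libraries. Without any one of them 0 or 1 of the 10 markers was called, the 1 being Igfbp4 without the first Lgr5-low library. Markers of other lineages moved with the gate: 5 of 10 enterocyte genes were called lower in Lgr5-high cells, where the 10 summed to 502 and 555 FPKM against 2520 and 4670. Their part in the marker differences was not tested.

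**Figure D1:**
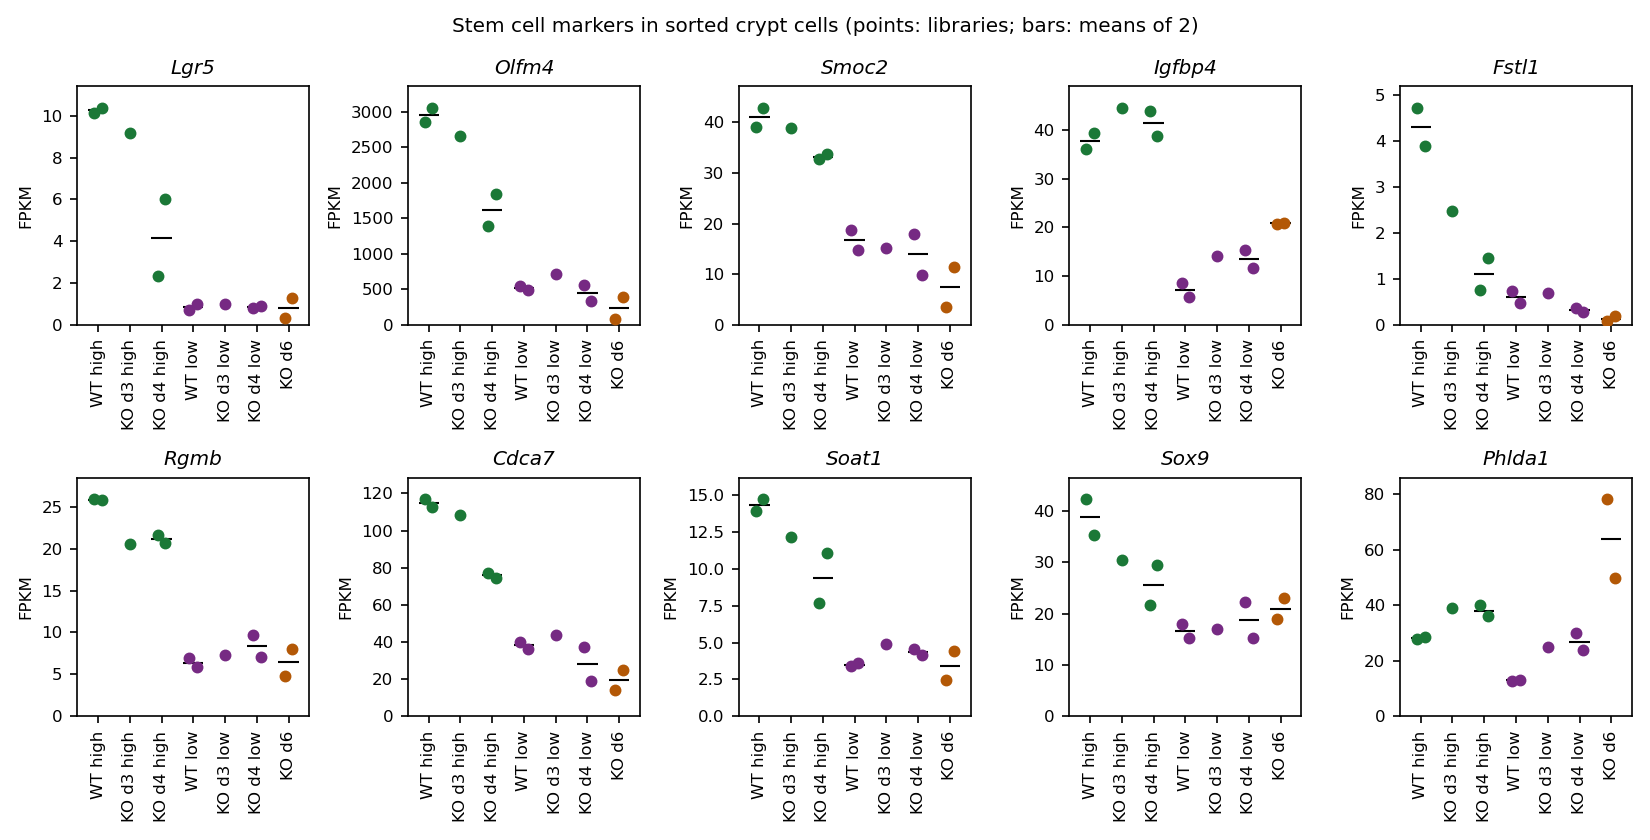
FPKM of each of the 10 markers in sorted crypt cells on linear axes from 0, with 1 point per library and a bar at the mean of 2 libraries, for WT, day 3 and day 4 knockout cells of the Lgr5-high gate, the same of the Lgr5-low gate, and day 6 knockout cells. At day 6 both libraries lay below both WT Lgr5-high libraries for 9 markers and above them for Phlda1, at 78.1 and 49.7 FPKM.

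At day 3 the single Lgr5-high knockout library lay below both wild-type libraries for 8 of the 10 markers. For Smoc2 that was 39.0 FPKM against 39.08 in the lower wild-type library. A single library has no replicate, so these are given as values with no test, and 30.1% of all genes lay below and 43.4% above in the same way. A side fit took the library in and assumed that it varies like the other groups. Its log2 differences for these 8 markers ran from -0.61 (Fstl1) to -0.07 (Smoc2). Fstl1 was farthest down, at 2.48 FPKM or 57.5% of the WT Lgr5-high mean. Sox9 was 30.5 FPKM (78.5%), Rgmb 20.5 (79.4%), Soat1 12.2 (84.9%), Lgr5 9.18 (89.4%) and Olfm4 2663 (90%). Cdca7 at 109 FPKM (94.7%) and Smoc2 at 39.0 (95.1%) were within a few percent of wild type. Igfbp4 and Phlda1 lay above it, at 44.5 FPKM (118%) and 39.0 FPKM (139%).

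At day 4, Fstl1 was the only marker that passed the test in Lgr5-high cells, and it fell. It measured 0.754 and 1.45 FPKM in the knockout against 4.73 and 3.90 in wild type (-1.35, 95% interval -1.85 to -0.86, limma adjusted p = 0.0325). Over all genes, 0.326% were called lower and 0.729% higher. Of the 136 genes called, 69.1% were higher, and 56.5% after scaling by the median of ratios. The markers had a median difference of -0.59 against -0.02 over all genes. Both knockout libraries lay below both wild-type libraries for 8 markers and above them for 1, beside 21.6% and 24.9% of all genes.

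Lgr5 itself was 2.31 and 6.00 FPKM at day 4, below wild type in both libraries (-1.23, -2.05 to -0.40, limma adjusted p = 0.146). The sort had asked for high reporter in these cells, and the 2 libraries differed more from each other than the wild-type pair did. Olfm4 was 1386 and 1845 FPKM (-0.89, -2.31 to 0.53, limma adjusted p = 0.505). Smoc2, at 32.7 and 33.7 FPKM, and Rgmb, at 21.6 and 20.6, were nearer to wild type than Olfm4 was (-0.30 and -0.28). Neither difference was called, and their 95% intervals reached -1.30 and -0.84. Cdca7 was 77.2 and 74.5 FPKM (-0.59), Soat1 7.71 and 11.1 (-0.58) and Sox9 21.7 and 29.5 (-0.59), with limma adjusted p-values of 0.271 to 0.405. Igfbp4 at 43.9 and 38.7 FPKM overlapped wild type (0.13, -0.38 to 0.64), and Phlda1 at 40.1 and 36.0 lay above it (0.43, limma adjusted p = 0.398).

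The Fstl1 call at day 4 was lost without the first day 4 library or without either wild-type library, where its limma adjusted p rose to 0.242 at most. It was kept without the second day 4 library. It was also lost with a pseudocount of 0.1, with no filter on low values and with a fit on these 2 groups alone (up to 0.233). Enteroendocrine markers moved in the other direction: 4 of 8 were called higher at day 4, and the 8 summed to 684 and 1430 FPKM against 199 and 81.2 in wild type. Goblet markers summed to 3110 and 4400 FPKM against 1240 and 900, with 1 of 7 called. Stromal and endothelial markers summed to 6.41 and 20.1 FPKM against 2.31 and 1.59, and 1 of the 11 reached the level needed for a test. The part of these other cell types in the marker values was not tested.

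In Lgr5-low cells no marker was called at day 4 (0.473% of all genes were called either way, and 1768 of 12899 had an unadjusted p under 0.05). Igfbp4 was 15.3 and 11.6 FPKM against 8.53 and 5.73 in WT Lgr5-low cells (0.84, 0.33 to 1.35, limma adjusted p = 0.157). Phlda1 was 29.8 and 23.8 FPKM against 12.8 and 13.1 (0.99, 0.45 to 1.52, limma adjusted p = 0.128). With Rgmb (9.73 and 7.10 FPKM) and Soat1 (4.53 and 4.16), these made 4 markers whose knockout libraries both lay above wild type, beside 29.1% of all genes, and Fstl1 (0.359 and 0.273) was the 1 below, beside 24.3%. Lgr5 at 0.792 and 0.906, Olfm4 at 562 and 337, Smoc2 at 17.9 and 9.87, Cdca7 at 37.3 and 19.1 and Sox9 at 22.4 and 15.3 FPKM overlapped wild type. The day 3 Lgr5-low library lay above both wild-type libraries for 7 markers and between them for 3, beside 42.0% of all genes above. Igfbp4 was 14.1 FPKM and Phlda1 24.8 there, 198% and 192% of the wild-type mean.

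The gates still differed in the day 4 knockout, though no gene of the whole table passed the test between them by limma (2417 had an unadjusted p under 0.05). That fit took no pairing of the gates. With the replicate number as a block, 276 genes were called, 2 of the markers among them. For 9 of the 10 markers the Lgr5-high libraries lay above the Lgr5-low libraries, beside 26.3% of all genes, and Sox9 overlapped. Igfbp4 had the smallest p of the 10 (1.56, 1.05 to 2.06, limma adjusted p = 0.0807). Whether the day 4 change differed between gates was tested as an interaction: no marker was called (0.0155% of all genes, 2 of 12899, with 223 at an unadjusted p under 0.05). The limma interaction terms of Fstl1 (-1.08, unadjusted p = 0.00713) and Lgr5 (-1.23, unadjusted p = 0.0405) had the direction of a greater loss in the high gate. The limma adjusted p of Fstl1 was 0.963. In WT Lgr5-low cells their means were only 0.596 and 0.844 FPKM, so the log2(FPKM + 1) scale left little room for a fall in the low gate. Whether that floor set the direction was not tested.

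At day 6 all 10 markers had changed against WT Lgr5-high cells: 9 fell and Phlda1 rose. Over all genes, 11.9% were called lower and 10.1% higher. No marker's day 6 libraries overlapped WT Lgr5-high, beside 41.7% of all genes lower and 27.5% higher without overlap. The markers' median difference was -2.06 against -0.16 over all genes. Scaling by the median of ratios moved that median of all genes to -0.01, and the share of called genes that were higher from 45.9% to 56.9%. The markers' differences are thus to be read against a general shift of that size.

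Olfm4 fell most on this scale, from 2857 and 3060 FPKM to 77.2 and 384 (-4.09, 95% interval -5.51 to -2.67, limma adjusted p = 0.00372). Lgr5 fell to 0.340 and 1.27 FPKM (-2.69, -3.52 to -1.87, limma adjusted p = 0.00239). Cdca7 fell to 13.9 and 24.6 FPKM (-2.56, limma adjusted p = 0.0022), and Smoc2 to 3.42 and 11.4 (-2.50, limma adjusted p = 0.00647). In each of these the first day 6 library was lower than the second, by a factor that was greatest for Olfm4 and Lgr5. Fstl1 was 0.0695 and 0.176 FPKM (-2.24, limma adjusted p = 0.00073), a level at which the log2(FPKM + 1) scale understates the fold change. Rgmb fell to 4.81 and 8.06 FPKM (-1.89, limma adjusted p = 0.00225) and Soat1 to 2.42 and 4.45 (-1.83, limma adjusted p = 0.00291).

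Sox9 and Igfbp4 were the markers least reduced. Sox9 was 18.9 and 23.1 FPKM (-0.86, limma adjusted p = 0.0401) and Igfbp4 20.7 and 20.8 (-0.83, limma adjusted p = 0.0309). Phlda1 rose from 27.7 and 28.4 to 78.1 and 49.7 FPKM (1.13, 0.59 to 1.66, limma adjusted p = 0.0121). Without any one library, 6 to 8 of the 10 remained called. Lgr5, Olfm4, Fstl1, Rgmb, Cdca7 and Soat1 were called in all 4 such fits, and Smoc2 in all but that without the second WT Lgr5-high library (limma adjusted p = 0.0535). Sox9 and Igfbp4 were lost in all 4, and Phlda1 was kept only without the second day 6 library. With no filter on low values Sox9 (limma adjusted p = 0.0808) and Igfbp4 were lost as well.

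Against WT Lgr5-low cells, Igfbp4 and Phlda1 rose at day 6 and no marker was called lower. Over all genes, 6.22% were called higher and 5.25% lower. Igfbp4 was 20.7 and 20.8 FPKM against 8.53 and 5.73 (1.44, 0.94 to 1.95, limma adjusted p = 0.00595), and Phlda1 78.1 and 49.7 against 12.8 and 13.1 (2.18, 1.65 to 2.72, limma adjusted p = 0.00208). Lgr5, Rgmb and Soat1 had day 6 libraries on either side of the WT Lgr5-low values, with differences of -0.08 (-0.90 to 0.75), -0.02 (-0.58 to 0.55) and -0.06 (-0.65 to 0.54). Olfm4 (-1.56, limma adjusted p = 0.148), Smoc2 (-1.25, 0.107), Cdca7 (-1.0, 0.091) and Fstl1 (-0.50, 0.18) lay below WT Lgr5-low cells in both libraries without being called. Both knockout libraries lay above for 3 markers, Sox9 being the third (0.32), beside 26.1% of all genes, and below for those 4, beside 32.8%. Phlda1 was called without any one library, Igfbp4 was lost without the second WT Lgr5-low library (limma adjusted p = 0.0654), and 4 markers were called without the second day 6 library.

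The wild-type gate that day 6 should be read against is not given in the titles, while the header of the first day 6 library names the low gate. Of the sums of other markers, the enterocyte sum at day 6 (3860 and 4240 FPKM) lay within the WT Lgr5-low range and far above WT Lgr5-high (502 and 555), and 7 of 10 enterocyte genes were called higher than in WT Lgr5-high but 0 than in WT Lgr5-low cells. Enteroendocrine genes (7 of 8) and goblet genes (6 of 7) were also called higher than in WT Lgr5-high. The Paneth sum was 154000 FPKM in the first day 6 library, against 32200 to 84200 in the other 11 tissue libraries. That library also had the highest FPKM total of all libraries, at 763177. Of 22 cell cycle genes 7 were called lower and 1 higher than in WT Lgr5-high. The part of gate and cell make-up in the marker values was not tested, and labelled day and gate cannot be told apart at day 6.

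**Figure D2:**
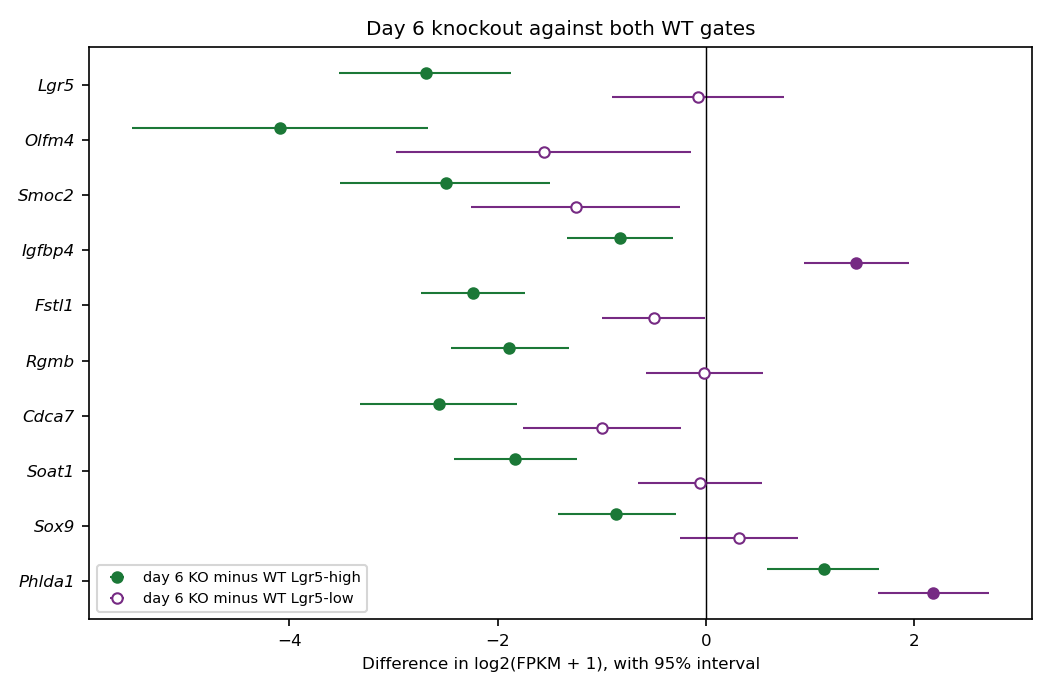
Difference in log2(FPKM + 1) between day 6 knockout and WT Lgr5-high cells (green) or WT Lgr5-low cells (purple) for each marker, with 95% intervals from the limma fit, where filled points had an adjusted p under 0.05. Against Lgr5-high all 10 were called, and against Lgr5-low only Igfbp4 and Phlda1 were, both on the higher side.

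Between day 4 Lgr5-high and day 6 cells, 5 markers fell: Olfm4 (-3.21, limma adjusted p = 0.0367), Smoc2 (-2.21, 0.0394), Cdca7 (-1.97, 0.0267), Rgmb (-1.61, 0.0228) and Soat1 (-1.25, 0.0436). Over all genes 1.23% were called lower. Of all genes called, 61.6% were higher, and 72.6% after scaling. Lgr5 (-1.47, limma adjusted p = 0.0653), Igfbp4 (-0.96, 0.0552) and Fstl1 (-0.89, 0.0644) lay lower in both libraries and missed the threshold. No marker was called without the first day 6 or the first day 4 library, and none with no filter on low values or with a fit on these 2 groups alone. Against day 4 Lgr5-low cells no marker was called at day 6 (0.0543% of all genes, with 1069 at an unadjusted p under 0.05). Phlda1 (1.2, limma adjusted p = 0.143) and Igfbp4 (0.60, 0.495) lay above in both libraries.

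Read as a share of the WT Lgr5-high mean, the markers were low at different labelled days. Fstl1 was at 57.5%, 25.5% and 2.84% at days 3, 4 and 6. Lgr5 was at 89.4%, 40.4% and 7.83%, but its day 4 libraries stood at 22.5% and 58.4%, on either side of 50%. These were the markers whose mean was at or under 50% at day 4, a level that 4.46% of all genes had reached. Olfm4 went from 54.6% at day 4 to 7.80% at day 6, Cdca7 from 66.1% to 16.8%, Soat1 from 65.5% to 23.9%, Smoc2 from 81.0% to 18.0% and Rgmb from 81.7% to 24.9%. They first lay under 50% at day 6, when 14.9% of all genes did.

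At day 4, Smoc2 and Rgmb were thus at the highest shares of these 5, above Olfm4 at 46.9% and 62.4% in its libraries and Cdca7 at 67.3% and 64.9%. Sox9 (65.9% at day 4, 54.1% at day 6) and Igfbp4 (110% and 55.2%) had means above 50% at each day, and Phlda1 was at 139%, 136% and 228%. The days at which the means first lay at or under 50% were the same after scaling by the median of ratios. No test compares one marker's decline with another's, and day 3 rests on 1 library. The titles of day 6 name no gate, while the header of its first library names the low gate. All these shares use the same 2 WT Lgr5-high libraries, so a deviation in those libraries enters every day alike. As a share of the WT Lgr5-low mean, day 6 cells had 95.3% for Lgr5, 101% for Rgmb and 98.4% for Soat1. For Fstl1, Smoc2, Olfm4 and Cdca7 that share was 20.6%, 44.2%, 45.1% and 50.5%. Gate and day cannot be told apart in the day 6 shares.

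**Figure D3:**
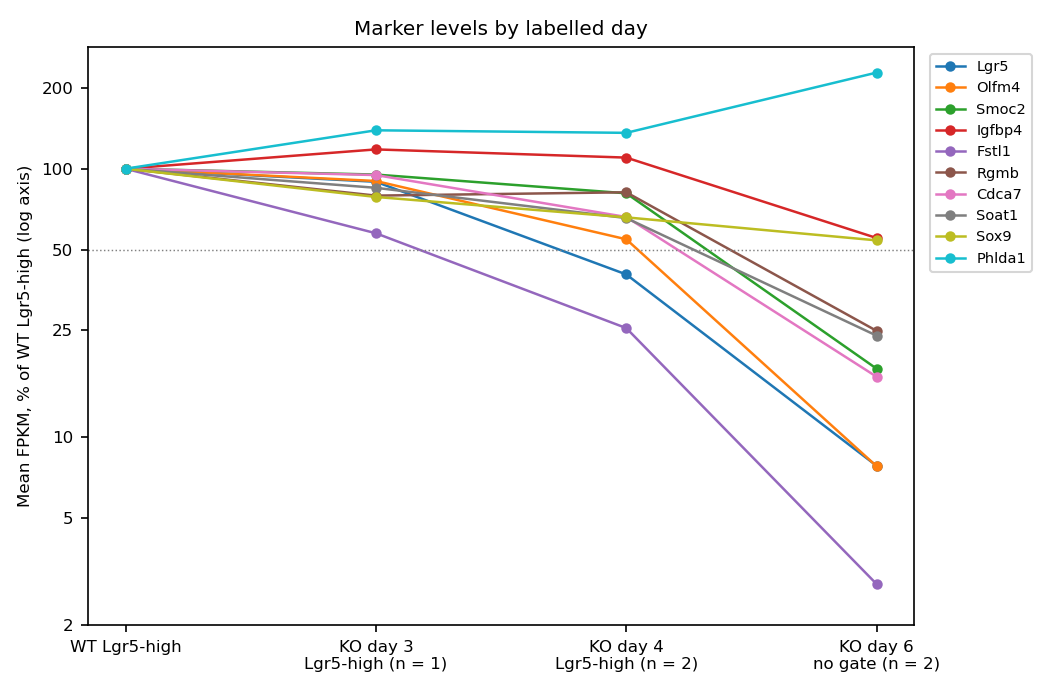
Mean FPKM of each marker as a percentage of the WT Lgr5-high mean (log axis), with a dotted line at 50%. Shown are Lgr5-high knockout cells at day 3 (1 library) and day 4 (2 libraries) and day 6 knockout cells (2 libraries). The day 6 titles name no gate, and the header of the first day 6 library names the low gate. Fstl1 (25.5%) and Lgr5 (40.4%) lie under the line at day 4, 5 markers lie under it only at day 6, and Phlda1 ends at 228%.

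A list of 22 other genes linked to crypt stem cells was counted in the same fits. All 22 were higher in WT Lgr5-high than Lgr5-low cells with no overlap, and 6 were called, among them the receptor Tnfrsf19 (2.33), the transcription factor Ascl2 (2.07), the RNA-binding protein Msi1 (1.80) and the adhesion receptor Cd44 (1.59). At day 4 in Lgr5-high cells 0 of 22 were called. At day 6 against WT Lgr5-high 16 fell and 0 rose, led by the urea transporter Slc14a1 (-3.41), the vitamin D receptor Vdr (-3.15), Ascl2 (-2.66) and the potassium channel Kcnq1 (-2.60). Against WT Lgr5-low cells Cd44 (2.11) and the Eph receptor Ephb3 (1.07) rose, as Igfbp4 and Phlda1 did among the 10 markers. Vdr (-2.55), Kcnq1 (-1.69), Slc14a1 (-1.62) and the Wnt receptor ligase Rnf43 (-1.22) fell there.

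In organoids, 9 of the 10 markers reached the 1 FPKM needed for the test. Fstl1 did not: it was 0.0541 and 0.10 FPKM in WT, 0.0502 and 0.0307 in KO and 0.123 and 0.0587 in AKF organoids, and was listed at 0 in both AKFP libraries. Fstl1, the marker with the lowest share of WT Lgr5-high at day 3 and day 4 in tissue, was thus near 0 in these cultures, WT included. Levels in organoids and tissue come from tables normalized separately and are not tested against each other.

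After 2 days of 4-OHT, 5 markers fell and 1 rose in KO against WT organoids. Over all genes 11.5% were called lower and 16.7% higher. The markers' median difference was -0.42 against 0.01 over all genes. Olfm4 fell most, from 467 and 548 to 217 and 226 FPKM (-1.19, 95% interval -1.49 to -0.88, limma adjusted p = 0.00139), so KO organoids held 43.7% of the wild-type mean. Lgr5 fell from 14.5 and 15.7 to 9.23 and 9.55 FPKM (-0.63, -0.82 to -0.45, limma adjusted p = 0.00214), to 62.2%. Both genes had KO libraries within a few percent of each other and well below the wild-type pair.

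Smoc2 fell from 54.5 and 57.5 to 38.3 and 37.7 FPKM (-0.55, limma adjusted p = 0.00478) and Cdca7 from 40.4 and 43.1 to 27.5 and 28.2 (-0.57, limma adjusted p = 0.013). Soat1 fell from 11.4 and 12.1 to 8.35 and 9.20 FPKM (-0.39, limma adjusted p = 0.0135). Phlda1 rose from 106 and 104 to 151 and 146 FPKM (0.50, 0.35 to 0.64, limma adjusted p = 0.00207), the direction it had at day 6 in tissue. Rgmb was 14.7 and 16.0 FPKM in WT and 10.5 and 12 in KO organoids, lower in both libraries but over the threshold (-0.42, limma adjusted p = 0.054). Sox9, at 17.6 and 21.4 against 16.6 and 16.3 FPKM (-0.22), and Igfbp4, at 23.2 and 13.6 against 26.0 and 24.4 (0.48), were not called. The wild-type Igfbp4 libraries lay far apart.

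Leaving out 1 library, Lgr5, Olfm4, Smoc2 and Phlda1 were called each time. Soat1 was lost without the first KO or the second WT library, and Cdca7 was kept only without the first WT library, a fit in which 7 markers were called. Enterocyte markers summed to 4370 and 4410 FPKM in WT and 1890 and 1940 in KO organoids. The Paneth sum was 7460 and 5590 in WT and 9180 and 7810 in KO, and of 22 cell cycle genes 2 were called higher and 6 lower in KO. Their part in the marker differences was not tested.

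**Figure D4:**
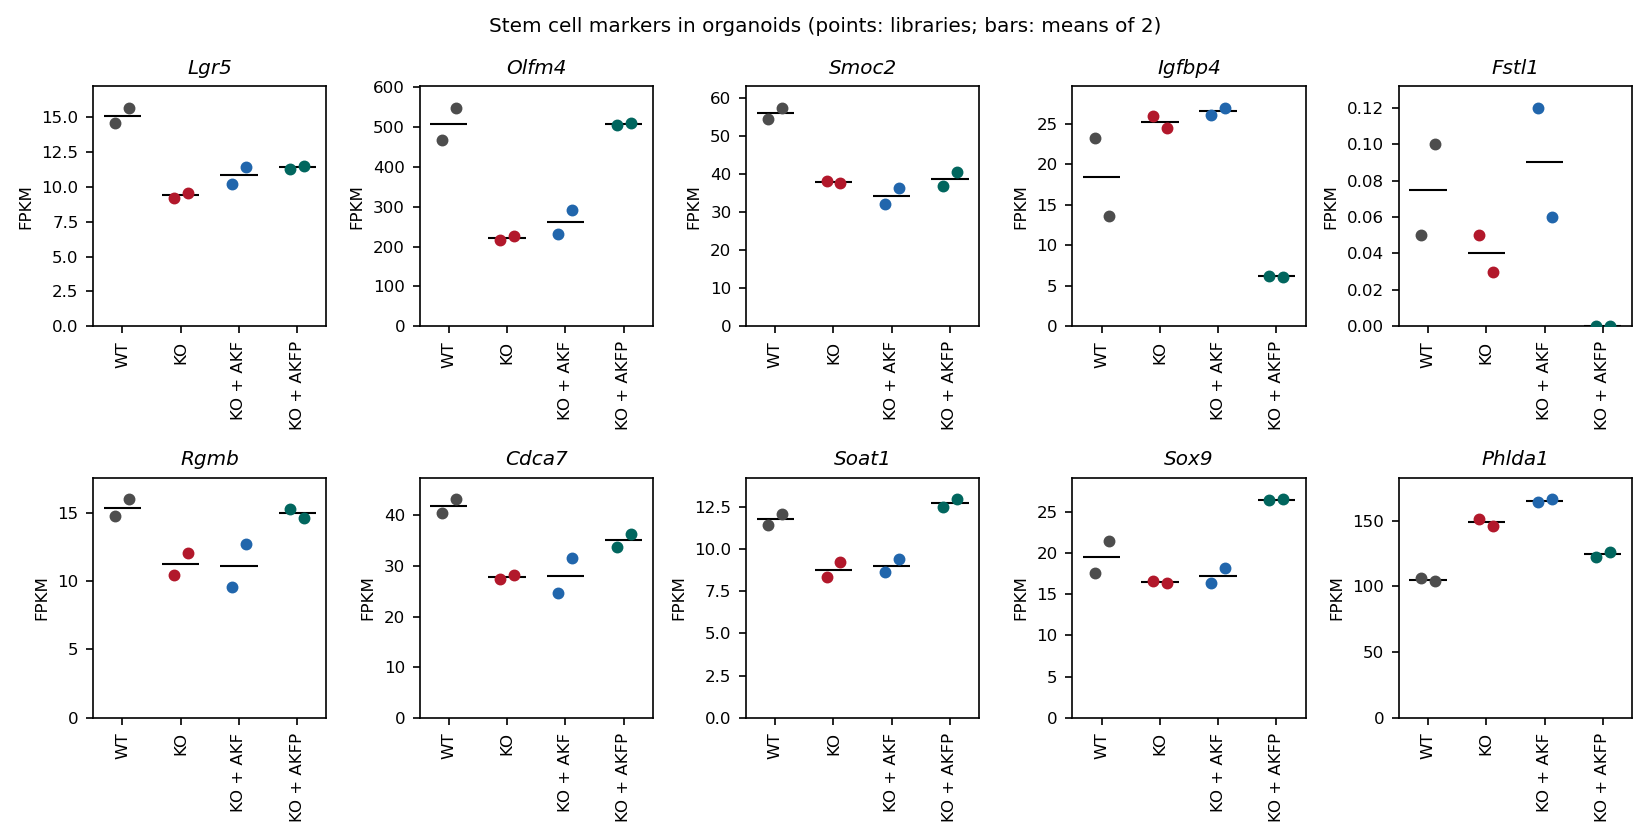
FPKM of each marker in WT, KO, AKF and AKFP organoids on linear axes from 0, with 1 point per library and a bar at the mean of 2. Olfm4 is at 504 and 509 FPKM with AKFP, within the WT range of 467 to 548, while Lgr5 and Smoc2 stay below both WT libraries and Igfbp4 drops to 6.22 and 6.14.

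In AKF organoids no marker was called against KO organoids. Over all genes 0.0474% were called (6 by limma, with 582 at an unadjusted p under 0.05), so few genes of any kind were. Lgr5 was 10.2 and 11.4 FPKM (0.18, upper bound 0.37) and Olfm4 231 and 293 (0.23, -0.07 to 0.53), both above the KO libraries. Smoc2, at 32.2 and 36.4 FPKM, lay below them (-0.15, -0.35 to 0.05). Soat1 was 8.63 and 9.40 FPKM (0.04, -0.15 to 0.22), Rgmb 9.54 and 12.7 (-0.02, -0.34 to 0.29), Cdca7 24.6 and 31.6 (0.00, -0.27 to 0.28) and Sox9 16.4 and 18.2 (0.06, -0.18 to 0.30), all overlapping KO. Igfbp4 was 26.1 and 27.0 FPKM (0.07) and Phlda1 164 and 166 (0.15, 0.01 to 0.30). All limma adjusted p-values of these 9 were 1.0. The intervals leave room for a return of Lgr5 of up to 0.37 and of Olfm4 of up to 0.53 on the log2 scale, below the falls of 0.63 and 1.19 themselves.

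Against WT organoids, AKF cultures had 6 markers called lower and Phlda1 higher (12.7% and 17.6% of all genes). These were the 5 that were low in KO and Rgmb (-0.44, limma adjusted p = 0.0428). Without the second WT library 4 were called.

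In AKFP organoids, 3 markers were called higher and 2 lower than in KO organoids. Purb RNA itself was not called in that comparison (0.19, limma adjusted p = 0.257). Over all genes 13.2% were called in each direction. Olfm4 rose to 504 and 509 FPKM (1.19, 0.89 to 1.49, limma adjusted p = 0.00202), and Soat1 to 12.5 and 12.9 (0.49, 0.30 to 0.68, limma adjusted p = 0.00799). Sox9 rose to 26.4 and 26.5 FPKM (0.65, 0.41 to 0.89, limma adjusted p = 0.00676), above both WT libraries. Igfbp4 fell to 6.22 and 6.14 FPKM (-1.87, -2.35 to -1.38, limma adjusted p = 0.00218), the greatest change among the 9 in this comparison. Phlda1 fell to 123 and 126 FPKM (-0.26, limma adjusted p = 0.0244), between KO and WT.

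Lgr5 was 11.3 and 11.5 FPKM with AKFP, above both KO libraries but not called (0.25, 0.07 to 0.44, limma adjusted p = 0.0522). Rgmb was 15.3 and 14.6 FPKM (0.39, limma adjusted p = 0.0697) and Cdca7 33.8 and 36.3 (0.32, limma adjusted p = 0.0796), also above both KO libraries. Smoc2 stayed apart from these: at 36.8 and 40.7 FPKM it overlapped KO (0.03, -0.17 to 0.23, limma adjusted p = 0.827). Without any one library Olfm4, Sox9 and Igfbp4 were called each time, Phlda1 was lost each time, and Soat1 was lost without the second AKFP or the first KO library (limma adjusted p up to 0.0574). A fit on the AKFP and KO libraries alone called 8 of the 9.

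Thus 2 of the 5 markers that fell in KO organoids were called higher with AKFP, Olfm4 and Soat1, and 0 of 5 with AKF. Over all genes 13.2% were called higher with AKFP, and 0.0474% were called either way with AKF. The matching share among all genes called lower in KO is not given here, so whether 2 of 5 is unusual cannot be told. As a share of the KO change made up, AKFP organoids had 99.8% for Olfm4 and 131% for Soat1, 51.7% for Cdca7, 35.0% for Lgr5 and 4.40% for Smoc2, the last being -2.05% after scaling. AKF organoids had 24.8% for Lgr5, 14.1% for Olfm4, 8.04% for Soat1, 2.09% for Cdca7 and -20.4% for Smoc2. Phlda1, which had risen, went 55.9% of the way back with AKFP. These shares use the KO libraries both for the fall and for the return, so a deviation of those 2 libraries moves both in the same direction.

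AKFP was also tested against WT organoids, with no KO library in the difference. Olfm4 (0.00, -0.30 to 0.31), Soat1 (0.10, -0.09 to 0.29) and Rgmb (-0.03, -0.35 to 0.28) were not called, whereas Lgr5 (-0.38, limma adjusted p = 0.00847) and Smoc2 (-0.52, limma adjusted p = 0.0033) were lower. Igfbp4 was lower too (-1.39, limma adjusted p = 0.00229), and Sox9 (0.43, limma adjusted p = 0.0139) and Phlda1 (0.24, limma adjusted p = 0.0183) were higher. Among all genes 18.8% were called lower and 24.6% higher. Phlda1 was lost without any one library and Sox9 was kept only without the second WT library.

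AKFP and AKF organoids, which differ in their labels by Purb and are separate cultures, were also compared directly. Olfm4 (0.96, limma adjusted p = 0.00418), Sox9 (0.59, 0.00945) and Soat1 (0.45, 0.0101) were higher and Igfbp4 (-1.94, 0.00186) and Phlda1 (-0.41, 0.006) lower with AKFP, beside 12.8% and 12.7% of all genes. Lgr5 overlapped between them and was not called (0.07, -0.11 to 0.26). Between 3 and 7 markers were called without 1 library. Purb RNA was 15.9 and 16.8 FPKM in AKF and 19.5 and 16.5 in AKFP organoids, below 22.9 and 25.5 in WT.

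Other lineages moved with AKFP. Paneth markers were called higher than in KO for 6 of 9 genes, with sums of 12400 and 11400 FPKM, and enterocyte markers summed to 1030 and 1130. Of 22 cell cycle genes 12 were called higher and 0 lower. Sox9 is also a Paneth cell gene, so its rise and the Paneth sum moved together, and that link was not tested.

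**Figure D5:**
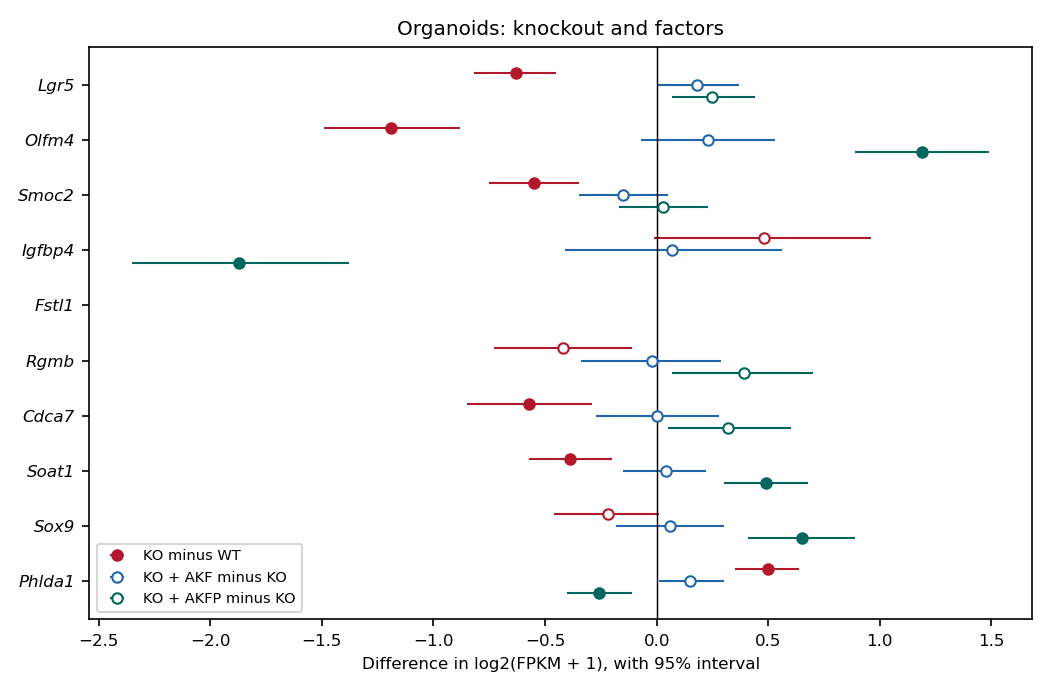
Difference in log2(FPKM + 1) for the 9 markers tested in organoids, for KO minus WT (red), AKF minus KO (blue) and AKFP minus KO (dark green), with 95% intervals from the limma fit, where filled points had an adjusted p under 0.05. Fstl1 was below 1 FPKM and has no point. For Olfm4 the KO difference of -1.19 is matched by 1.19 with AKFP, while for Smoc2 the -0.55 is followed by 0.03.

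The list of 22 other stem cell genes, 21 of them tested in organoids, had 5 called lower and 1 higher in KO, with Vdr (-0.87), Dach1 (-0.50) and Kcnq1 (-0.37) among the lower and the water channel Aqp4 (0.55) the higher. With AKF only Ascl2, itself a factor in the virus, was called. With AKFP 8 were called higher than in KO and 0 lower, among them Cd44 (0.76), the ion cotransporter Slc12a2 (0.70), Ascl2 (0.61) and Aqp4 (0.57).

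Across the 12 tissue libraries the markers varied together to different degrees, given as a description since the libraries share gates and days. Pearson r of log2(FPKM + 1) was 0.98 between Lgr5 and Soat1 and 0.98 between Olfm4 and Smoc2. Phlda1 stood apart, with r between -0.26 (Smoc2) and 0.63 (Igfbp4). Outside the set, Sorbs2 (0.966), Fgfr4 (0.965), Cdk6 (0.964), Ninl (0.964) and Vwa2 (0.962) had profiles most like that of Lgr5, and Msi1 (0.983) was most like the mean of the scaled markers.

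The sequence GGACT, one form of the motif in which m6A is placed, was counted in the longest coding transcript of each marker as a property that the choice of genes did not use. It occurred between 0 times per kilobase in Cdca7 and 1.57 in Igfbp4, with a median of 0.88 over the 10 against 1.05 over 11138 tested protein-coding genes. Fstl1 had 1.32 per kilobase, Lgr5 1.06 and Olfm4 0.71. No m6A was measured in the files used here, so these counts say only how often the letters occur.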

How the data were processed

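Bulk RNA sequencing of 12 sorted crypt libraries and 8 organoid libraries was analysed from the authors' processed tables. FPKM values per gene were deposited by the authors, named so per the file headers for tissue, while the header of the organoid table names no unit and its values were taken as FPKM. The build mm10 and the programs StringTie 1.3.3b and HISAT2 2.1.0 are named, without roles, per the submitters' processing notes. Read counts were not used here, so depth was estimated from the steps between low values and no count test was run.

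Genes at 1 FPKM or more in at least 2 libraries of a fit were kept (12899 in tissue, 12657 in organoids) and log2(FPKM + 1) was fitted with limma 3.58.1 in R 4.3.3, with 1 mean per group, a trended prior and two-sided tests, adjusted by Benjamini-Hochberg over all genes of the fit. There were 15 comparisons, with a call at an adjusted p under 0.05. The tissue fit took 10 libraries, and day 3, with 1 library per gate, stayed outside it. Fold changes are on the log2(FPKM + 1) scale, which understates changes of low genes such as Fstl1. Intervals are 95% intervals of the fit. The fit was tested before use on simulated data in which every gene had the same spread, smaller than that of the markers in tissue. That run therefore cannot show how well the tissue fits find changes.

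The 10 markers, Mettl3, the overexpressed factors, up to 4 called genes per comparison of the list of 22 other stem cell genes, and the 5 genes most like Lgr5 or the marker mean were named. Pla2g2a was named after its values were seen. The members and all gene lists, which also cover Paneth, enterocyte, goblet, enteroendocrine, tuft, immune, stromal and cell cycle genes, were chosen with earlier results of these data known. Tuft markers summed to 5.56 to 51.4 FPKM in tissue and to 2.93 to 4.63 in organoids. Alternatives were another pseudocount, no filter, median-of-ratios scaling, a fit on the compared groups alone, a replicate block, and leaving out each library. Leaving out a library leaves a group with 1 library that is assumed to vary like the other groups. The number of genes called over the whole table also moved in those fits. Their counts of markers called are therefore not results about the markers.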

Additional observations from a re-analysis of the deposited data

Results flagged for a closer look

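Rgmb and Soat1 had differences of opposite sign between knockout and wild type in 2 settings. In day 4 Lgr5-low cells every knockout library lay above every wild-type library, beside 29.1% of all genes. The log2 differences were 0.34 for Rgmb (-0.22 to 0.91, limma adjusted p = 0.608) and 0.25 for Soat1 (-0.34 to 0.84, limma adjusted p = 0.747). Neither was called, and both intervals held either sign. In organoids every KO library lay below every WT library, with differences of -0.42 for Rgmb (limma adjusted p = 0.054), not called, and -0.39 for Soat1 (limma adjusted p = 0.0135), called lower. There 11.5% of all genes were called lower, and the share of all genes below without overlap is not given here. Day 4 Lgr5-high cells had the sign of the organoids, at -0.28 for Rgmb and -0.58 for Soat1, neither called. The difference between the settings was not tested, because the tissue and organoid values come from separate tables, each fitted on its own.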

How the results depend on the processing

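Of the marker results called with all libraries, 358 values under the alternatives kept direction and call, 101 lost the call and 0 reversed; of those not called, 793 stayed so, 41 gained a call and 35 changed sign. Counts of markers called changed as follows. Between the WT gates (5 called) no filter gave 1 and a fit on the compared groups alone 10. For day 4 against WT Lgr5-high (1), the pseudocount of 0.1, no filter and the fit on the compared groups alone each gave 0. For day 6 against day 4 Lgr5-high (5), no filter and the fit on the compared groups alone gave 0. For AKFP against KO (5), the fit on the compared groups alone gave 8. The day 3 Lgr5-high median over the markers was -0.22 with scaling. The cause was not tested.

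The labels do not say that a replicate number marks a shared animal, day or culture. Deviations from the group means of same-numbered libraries correlated at 0.0243 to 0.52 in tissue, over 0.1 for 7 of 10 pairs of groups and highest for day 4 Lgr5-high with day 6, and at -0.0392 to 0.0911 in organoids, over 0.1 for 0 of 6. Not every pair was over 0.1, so the main fits took no pairing, although the gates of wild type (0.439) and of day 4 (0.339) were over it. That rule also counts pairs of different genotypes, so it cannot decide whether the gates of the same genotype and day were paired. If they were, the main tests between gates ignored it. At day 4 Pla2g2a split by replicate number in both gates. It was 4723 (Lgr5-high) and 3346 FPKM (Lgr5-low) in the first libraries, and 87.9 and 107 in the second. What the replicate number marks was not tested. With the replicate number as a block, 8 markers were called between the WT gates, 2 between the day 4 gates (0 without the block) and 8 for AKFP against KO, and no other count of markers moved by over 1.5 times. Over all genes the block gave 432 calls between the WT gates (155 without it), 283 for day 4 against WT Lgr5-high (136), 109 in Lgr5-low (61), 276 between the day 4 gates (0), 751 for day 6 against day 4 Lgr5-high (414) and 15 against day 4 Lgr5-low (7). Without a filter these counts over all genes were 32, 29, 21, 5, 66 and 15, with 7 for the interaction (2) and 13 for AKF against KO (6). Fits on the compared groups alone gave 1432, 0 and 1 for the first 3, 0 and 2 for day 6 against the day 4 gates, and 1800 for AKFP against AKF (3239). A pseudocount of 0.1 gave 38 in Lgr5-low, 266 and 0 for day 6 against the day 4 gates and 0 for the interaction. Scaling gave 243 between the WT gates, 3 between the day 4 gates and 3 for day 6 against day 4 Lgr5-low.

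Without 1 library, the markers called ranged from 0 to 1 between the WT gates, 0 to 2 for day 4 against WT Lgr5-high and between the day 4 gates, 6 to 8 for day 6 against WT Lgr5-high, 1 to 4 against WT Lgr5-low, 0 to 5 against day 4 Lgr5-high and 0 to 2 against day 4 Lgr5-low. In organoids the ranges were 4 to 7 for KO and for AKF against WT, 3 to 4 for AKFP against KO and against WT, and 3 to 7 against AKF.

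All changes of sign were in differences that were not called. With scaling they were Lgr5 at day 4 in Lgr5-low (-0.01), Soat1 (0.0) and Rgmb (0.05) at day 6 against WT Lgr5-low, Smoc2 with AKFP against KO (-0.02) and Olfm4 with AKFP against WT (-0.07). Without 1 library they ranged, at day 4 in Lgr5-low, from -0.11 to 0.41 for Sox9, -0.09 to 0.11 for Lgr5, -0.60 to 0.14 for Olfm4 and -0.70 to 0.11 for Smoc2, and in the interaction from -0.40 to 0.40 for Smoc2 and -0.56 to 0.37 for Cdca7. At day 6 against WT Lgr5-low they ranged from -0.46 to 0.30 for Lgr5, -0.39 to 0.28 for Soat1 and -0.34 to 0.30 for Rgmb, and against day 4 Lgr5-low from -0.09 to 0.43 for Sox9, -0.46 to 0.30 for Lgr5 and -0.64 to 0.03 for Soat1. For AKF against KO they ranged from -0.01 to 0.13 for Sox9, -0.03 to 0.10 for Soat1, -0.21 to 0.16 for Rgmb and -0.17 to 0.18 for Cdca7. With AKFP they ranged from -0.04 to 0.10 for Smoc2 against KO, -0.11 to 0.12 for Olfm4 and -0.09 to 0.02 for Rgmb against WT, and 0.00 to 0.14 for Lgr5 against AKF.

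With 2 libraries per group, a missed threshold does not show that a marker stayed the same. Fstl1 below 1 FPKM in organoids and at day 6 rests on few fragments, so its percentages there are rough. Depth is known only as an estimate.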
